A study of Saccharomyces cerevisiae with 12 samples.

Results

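The VPS genes of budding yeast were followed in a strain that lacks the protein kinase genes HAL4 (SAT4) and HAL5. Members were chosen by name, as every open reading frame of the deposited table whose standard name in RefSeq is VPS and a number. They number 42 of the 5994 open reading frames measured. Earlier results of these data were known when the genes were chosen, but no measured value entered the choice. The hal4hal5 mutant was compared with its wild type on 12 arrays, each holding RNA of both strains in different dyes. The arrays form 3 sets of 4, namely W303 in YPD at pH 6.0, W303 in YPD at pH 4.5 and BY4741 in YPD at pH 4.5. W303 and BY4741 are laboratory strains, YPD is a rich glucose medium, and cultures were taken in log phase. Every value below is a log2 ratio of mutant over wild type, so that 1 is a doubling in the mutant, and RNA came from whole cultures, in which fewer cells of a type and less RNA per cell cannot be told apart. The labels do not say how the genes were deleted or whether each mutant is a single clone.

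VPS genes were named from mutants that secrete vacuolar enzymes in place of delivering them. Most of their proteins act on the endosome, the sorting station between the Golgi, the plasma membrane and the vacuole, which is the lysosome of yeast. A lipid kinase and a Rab GTPase mark the endosome, tethers and SNARE partners drive its fusion, ESCRT complexes carry ubiquitin-tagged permeases inward for breakdown, and retromer returns receptors to the Golgi. Hal4 and Hal5 are known to keep nutrient permeases at the plasma membrane, permeases that otherwise take this route to the vacuole.

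Arrays carried between 4418 and 5696 values, and no spot intensities were used here. The direction of the ratios rests on the deleted genes. With Cy5 over Cy3 taken as the deposited ratio, the SAT4 ratio was below 0 on 9 of 10 arrays with a value, and the HAL5 ratio on 9 of 11. For SAT4 the means were -0.46 at pH 6.0 (n = 4) and -0.17 at pH 4.5 (n = 4) in W303, and -0.84 in BY4741 (n = 2). For HAL5 they were -0.03 (n = 3), -0.10 (n = 4) and -0.51 (n = 4) in the same order, a weak check of the labels. With the opposite numerator every sign below would turn round. Arrays agreed least in W303 at pH 6.0. Across genes, replicates 1, 2, 3 and 4 had mean correlations of 0.52, 0.33, 0.186 and 0.44 with the rest of that set. The lowest such correlation was 0.898 for W303 grown at pH 4.5, and 0.608 for BY4741. A gene not called at pH 6.0 was therefore not shown to be unchanged. The labels call the arrays biological replicates, and do not say whether arrays share a wild-type culture.

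Most calls of VPS genes came from the W303 mutant at pH 4.5, where those called were mainly higher, by at most 1.76-fold. In W303 at pH 6.0, 0 of 40 tested VPS genes passed limma's test at an adjusted p below 0.05, where 1.92% of all genes tested rose and 1.44% fell. At an unadjusted p below 0.05, 3 VPS genes were higher there (VPS72, VPS4 and VPS52) and 0 lower, against 10.0% and 9.47% of all genes. In W303 at pH 4.5, 21 of 41 rose and 4 fell, which is 51.2% and 9.76%, against 36.1% and 33.1% of all genes. In BY4741, 2 of 41 rose and 2 fell, that is 4.88% in each direction, below the 15.9% and 15.4% of all genes. Of the 25 calls in W303 at pH 4.5, 18 were made whichever single array was left out, while none of the 4 in BY4741 was. All genes lost calls in BY4741 too, down to 7.58% higher and 6.06% lower without replicate 3. In W303 at pH 4.5 the lowest shares were 30.0% and 28.5%, without replicate 4. The share of all called genes that kept the call is not given here, so these counts are not a result about VPS genes.

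The median over the VPS genes tested was -0.03 in W303 at pH 6.0, 0.16 in W303 at pH 4.5 and -0.01 in BY4741. The medians of all genes tested were 0.01, 0.03 and -0.01 in the same sets. The median over VPS genes in W303 at pH 4.5 was 0.14, 0.20, 0.23 and 0.24 on the 4 arrays. All 4 exceed the 12 array medians over all genes, which lay within 0.035 of 0. At pH 6.0 the VPS medians were -0.05, -0.16, 0.02 and 0.13, on both sides of 0, and in BY4741 they were 0.01, 0.01, 0.06 and 0. Means of single VPS genes ran from -0.42 to 0.52 at pH 6.0. They ran from -0.47 to 0.81 in W303 at pH 4.5 and from -0.36 to 0.29 in BY4741. The 5th to 95th percentiles of all genes tested were -0.50 to 0.58, -0.69 to 0.98 and -0.43 to 0.57 in the same sets. Single arrays ran wider than the means, with -1.30 for VPS15 and 1.03 for VPS45 at pH 6.0.

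**Figure D1:**
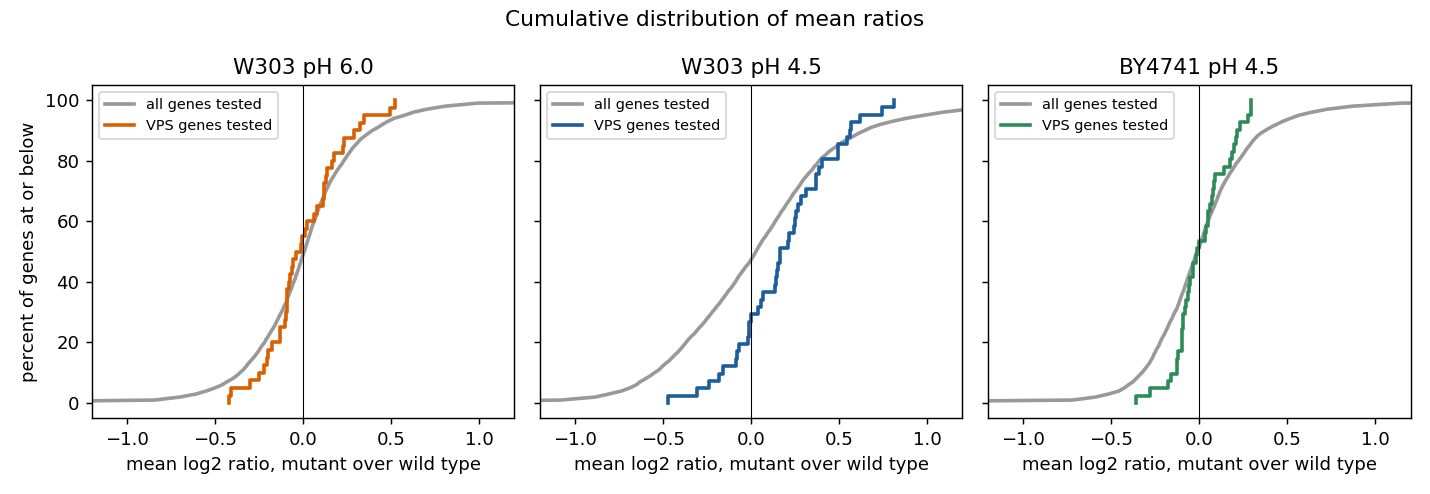
Cumulative percent of genes (vertical axis) at or below a mean log2 ratio of mutant over wild type (horizontal axis), for all genes tested (grey) and for the VPS genes tested (colour), in W303 pH 6.0, W303 pH 4.5 and BY4741 pH 4.5. The VPS curve lies to the right of the grey curve over most of its course in W303 at pH 4.5, where its median is 0.16 against 0.03, and crosses it near 0 in the other 2 sets.

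Single arrays are shown for all 42 genes in the map by role. All 12 arrays gave a value for 29 of them, and 13 had gaps. VPS71 was measured on 6 arrays, none of them from BY4741. VPS3 had too few values for the test in W303 at pH 4.5, and VPS71 and VPS501 at pH 6.0.

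**Figure D2:**
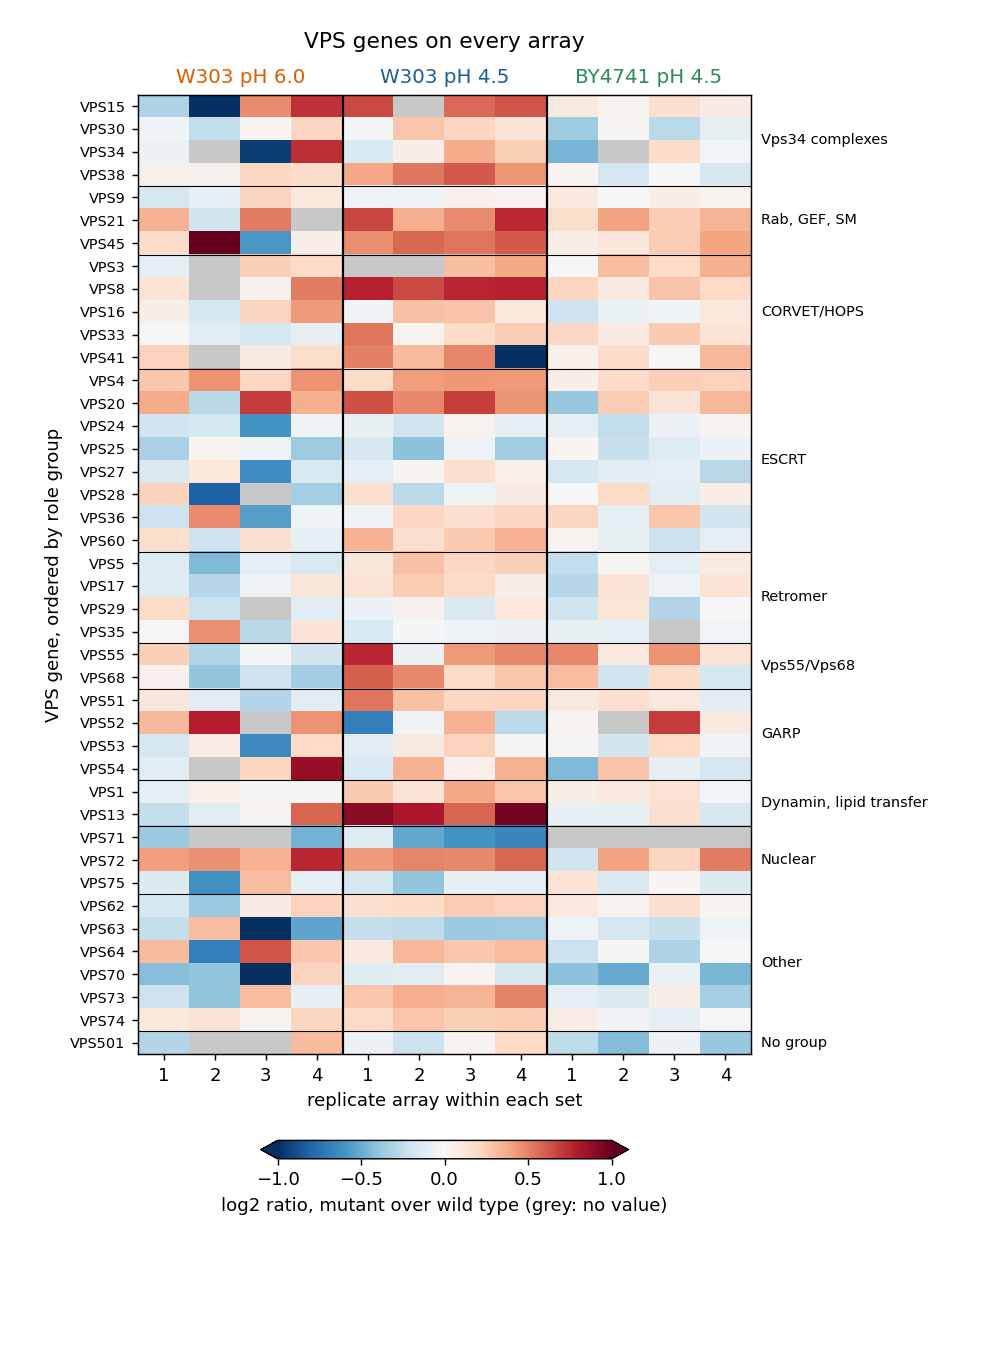
Log2 ratio of mutant over wild type (colour, cut at -1 and 1; grey where an array has no value) for the 42 VPS genes (rows, by role) on the 4 replicate arrays of each set (columns). Red predominates in the 4 columns of W303 at pH 4.5, with VPS13, VPS8 and VPS15 among the strongest rows, while the columns of W303 at pH 6.0 differ from one another and those of BY4741 are pale.

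The endosomal lipid kinase is Vps34, which makes a phosphoinositide mark on the membrane. VPS15, for its protein kinase partner and activator, had 0.66, 0.56 and 0.63 on the 3 arrays of W303 at pH 4.5 that measured it. The same gene ranged from -1.30 to 0.72 at pH 6.0 (-0.31, -1.30, 0.47 and 0.72) and from 0.04 to 0.16 in BY4741. All 3 values in W303 at pH 4.5 thus lie above the 4 in BY4741, while those at pH 6.0 fall on both sides. VPS15 rose 1.53-fold in W303 at pH 4.5 (log2 0.62 ± 0.070 SE, n = 3, adjusted p = 1.3e-04), with the mutant in Cy5 on all 3 arrays and so no dye swap behind it. The call was lost when the spread was pooled over all arrays (adjusted p = 0.079).

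VPS38, for the subunit that places the kinase in its endosomal complex, had 0.05, 0.04, 0.21 and 0.18 at pH 6.0, 0.39, 0.53, 0.62 and 0.44 in W303 at pH 4.5, and 0.03, -0.18, 0.00 and -0.16 in BY4741. Its values in W303 at pH 4.5 overlap neither other set. It rose 1.41-fold there (log2 0.49 ± 0.063 SE, n = 4, adjusted p = 1.5e-04). In BY4741 the mean was 0.01 on the 2 arrays with the mutant in Cy5 and -0.17 on the 2 with the mutant in Cy3. The kinase gene VPS34 itself was not called in any set, with means of -0.09, 0.13 and -0.10 in W303 at pH 6.0, W303 at pH 4.5 and BY4741. VPS30, for the subunit shared with the autophagy form of the complex, had -0.01, 0.15 and -0.18.

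Vps21, the Rab GTPase of the early endosome, is switched on by the exchange factor Vps9, and Vps45 is the SM protein that helps endosomal SNAREs to fuse membranes. VPS21 had 0.35, -0.19 and 0.52 on 3 arrays at pH 6.0, 0.67, 0.36, 0.48 and 0.74 in W303 at pH 4.5, and 0.17, 0.40, 0.24 and 0.34 in BY4741. It was above 0 on all 8 arrays at pH 4.5. It rose 1.48-fold in W303 at pH 4.5 (log2 0.56 ± 0.076 SE, n = 4, adjusted p = 2.0e-04) and 1.22-fold in BY4741 (log2 0.29 ± 0.067 SE, n = 4, adjusted p = 0.020). The BY4741 call was lost without replicate 2, 3 or 4, with means of 0.25, 0.31 and 0.27 and an adjusted p of at most 0.079, and with the spread pooled over all arrays (adjusted p = 0.065).

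VPS45 had 0.46, 0.57, 0.53 and 0.61 in W303 at pH 4.5, all above its highest value of 0.40 in BY4741. At pH 6.0 its arrays disagreed, with 0.18, 1.03, -0.58 and 0.06. It rose 1.46-fold in W303 at pH 4.5 (log2 0.54 ± 0.059 SE, n = 4, adjusted p = 5.7e-05), against a mean of 0.21 (adjusted p = 0.077) in BY4741. VPS9 stayed near 0 on every array of W303 at pH 4.5, from -0.04 to 0.05, with means of 0.02, 0.00 and 0.05 in W303 at pH 6.0, W303 at pH 4.5 and BY4741. Its gene product is the activator of Vps21, and its 12 values lay between -0.17 and 0.22.

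CORVET and HOPS tether membranes before fusion, at the early endosome and at the vacuole, and share core subunits. VPS8, specific to CORVET, had 0.13, 0.05 and 0.52 on 3 arrays at pH 6.0, 0.78, 0.66, 0.76 and 0.78 in W303 at pH 4.5, and 0.21, 0.10, 0.29 and 0.20 in BY4741. It was above 0 on all 11 arrays, with the arrays of W303 at pH 4.5 highest and no overlap with the other sets. VPS8 rose 1.68-fold in W303 at pH 4.5 (log2 0.75 ± 0.059 SE, n = 4, adjusted p = 9.6e-06), against 0.20 ± 0.063 (SE, n = 4, adjusted p = 0.054) in BY4741. In BY4741 it was called with a dye term in the fit, with array weights, or with values required on every array, at adjusted p of 0.028, 0.042 and 0.0496.

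The other tether genes moved less. VPS33, for the SM protein that both tethers share, had a mean of 0.25 ± 0.084 in W303 at pH 4.5 (SE, n = 4, adjusted p = 0.024), a call lost without replicate 1, 3 or 4 (adjusted p between 0.050 and 0.089, mean down to 0.16 without replicate 1). VPS16, another shared core subunit, had means of 0.14, 0.16 and -0.05 in W303 at pH 6.0, W303 at pH 4.5 and BY4741. VPS41, specific to HOPS, had 0.32 to 0.51 on 3 arrays of W303 at pH 4.5 and -1.06 on replicate 4. VPS3, specific to CORVET, had 0.30 and 0.38 on the 2 arrays of W303 at pH 4.5 that measured it, and a mean of 0.22 (adjusted p = 0.077) in BY4741.

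ESCRT complexes act in sequence on ubiquitin-tagged cargo, and 8 of their genes carry VPS names. In W303 at pH 4.5, 3 of the 8 rose (VPS20, VPS4 and VPS60) and VPS25 fell, beside 36.1% and 33.1% of all genes, so that the share that rose is near that of any gene. In each other set 0 of 8 were called. The shares of all genes higher and lower were 1.92% and 1.44% at pH 6.0, and 15.9% and 15.4% in BY4741. VPS20, for the subunit that starts ESCRT-III assembly, had 0.37, -0.28, 0.70 and 0.36 at pH 6.0, 0.64, 0.48, 0.69 and 0.45 in W303 at pH 4.5, and -0.38, 0.26, 0.13 and 0.33 in BY4741. The 4 values of W303 at pH 4.5 lie above all of BY4741 and within the range at pH 6.0. VPS20 rose 1.48-fold (log2 0.56 ± 0.066 SE, n = 4, adjusted p = 8.8e-05).

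VPS4, for the AAA ATPase that takes ESCRT-III apart, was above 0 on all 12 arrays. In W303 its means were 0.34 ± 0.099 at pH 6.0 (SE, n = 4, adjusted p = 0.14) and 0.37 ± 0.067 at pH 4.5 (SE, n = 4, adjusted p = 0.0011), against 0.18 ± 0.063 in BY4741 (SE, n = 4, adjusted p = 0.068). VPS60, for a further ESCRT-III-like subunit, rose by 0.28 in W303 at pH 4.5, with means of 0.01 at pH 6.0 and -0.08 in BY4741. VPS25, of ESCRT-II, had means of -0.18, -0.24 and -0.10 in W303 at pH 6.0, W303 at pH 4.5 and BY4741. Its fall in W303 at pH 4.5 (adjusted p = 0.017) was lost without replicate 2 or 4, with an adjusted p of at most 0.091 and a mean that stayed at or below -0.19. The cargo-binding VPS27 of ESCRT-0, VPS28 of ESCRT-I, VPS36 of ESCRT-II and VPS24 of ESCRT-III were not called in any set, with means between -0.08 and 0.14 in W303 at pH 4.5.

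Retromer joins a cargo-binding part, which includes Vps35 and Vps29, to the membrane-bending sorting nexins Vps5 and Vps17. The sorting nexin genes rose in W303 at pH 4.5, VPS5 by 0.21 ± 0.061 (SE, n = 4, adjusted p = 0.012) and VPS17 by 0.16 ± 0.061 (SE, n = 4, adjusted p = 0.040). The VPS17 call was lost whichever array was left out (adjusted p between 0.064 and 0.12), and that of VPS5 without replicate 4 (adjusted p = 0.066). The cargo-binding genes had means of -0.07 (VPS35) and -0.01 (VPS29) there. No retromer gene was called at pH 6.0, where 1.92% of all genes rose and 1.44% fell. None was called in BY4741 either, where 15.9% rose and 15.4% fell. VPS5 overlaps the reading frame VAM10 in the RefSeq annotation, which had 0 values at pH 6.0, 2 in W303 at pH 4.5 and 3 in BY4741.

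Vps55 and Vps68 form an endosomal membrane complex that acts late in sorting. VPS55 had 0.24, -0.30, -0.01 and -0.18 at pH 6.0, 0.76, -0.06, 0.43 and 0.48 in W303 at pH 4.5, and 0.48, 0.10, 0.45 and 0.14 in BY4741. In both sets at pH 4.5 its arrays with the mutant in Cy5 read higher than those with the mutant in Cy3, which averaged -0.06 (n = 1) in W303 and 0.12 (n = 2) in BY4741, against 0.55 (n = 3) and 0.46 (n = 2) with Cy5. The order was reversed at pH 6.0, with means of -0.24 with Cy5 (n = 2) and 0.11 with Cy3 (n = 2). VPS55 was called in W303 at pH 4.5, with a mean of 0.40 ± 0.11 (SE, n = 4, adjusted p = 0.012), and in BY4741, with 0.29 ± 0.088 (SE, n = 4, adjusted p = 0.045). The W303 call was lost without replicate 1 (0.28, adjusted p = 0.054). The BY4741 call was lost without replicate 1, 3 or 4 (0.23, 0.24 and 0.34) and with the spread pooled over all arrays (adjusted p = 0.10).

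VPS68 had 0.04, -0.39, -0.21 and -0.35 at pH 6.0, 0.59, 0.48, 0.19 and 0.28 in W303 at pH 4.5, and 0.31, -0.20, 0.18 and -0.18 in BY4741. The 2 sets of W303 do not overlap. It rose 1.31-fold in W303 at pH 4.5 (log2 0.39 ± 0.078 SE, n = 4, adjusted p = 0.0020). In BY4741 its sign followed the dye, with means of 0.25 with the mutant in Cy5 and -0.19 with the mutant in Cy3.

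GARP tethers vesicles that return from endosomes to the Golgi. Of its 4 genes, VPS51 rose in W303 at pH 4.5 by 0.31 ± 0.072 (SE, n = 4, adjusted p = 0.0042), and none was called elsewhere. A count of 1 in 4 is below the 36.1% of all genes that rose there. Elsewhere 1.92% and 1.44% of all genes rose and fell at pH 6.0, and 15.9% and 15.4% in BY4741. VPS53 had means of -0.13 and 0.06 in the W303 sets at pH 6.0 and pH 4.5 and of -0.0013 in BY4741, and VPS54 had 0.32, 0.15 and -0.10. VPS52 had the highest mean of the VPS genes tested at pH 6.0, at 0.52 ± 0.14 (SE, n = 3, adjusted p = 0.15). The VPS52 arrays of W303 at pH 4.5 ran from -0.69 to 0.35.

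Vps1 is a dynamin-like GTPase that cuts vesicles from membranes, and Vps13 is a long protein that moves lipids between organelles at contact sites. VPS13 had the largest rise of the 42 genes. It had -0.24, -0.12, 0.02 and 0.58 at pH 6.0, 0.90, 0.81, 0.58 and 0.95 in W303 at pH 4.5, and -0.07, -0.07, 0.16 and -0.16 in BY4741. The lowest of the W303 pH 4.5 values is just above the highest at pH 6.0 (0.584 against 0.582), and far above BY4741. VPS13 rose 1.76-fold in W303 at pH 4.5 (log2 0.81 ± 0.074 SE, n = 4, adjusted p = 2.1e-05), with means of 0.06 at pH 6.0 (adjusted p = 0.88) and -0.04 in BY4741 (adjusted p = 0.74). VPS1 rose by 0.27 in W303 at pH 4.5 (adjusted p = 0.0054), with means of -0.01 and 0.07 in W303 at pH 6.0 and BY4741.

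**Figure D3:**
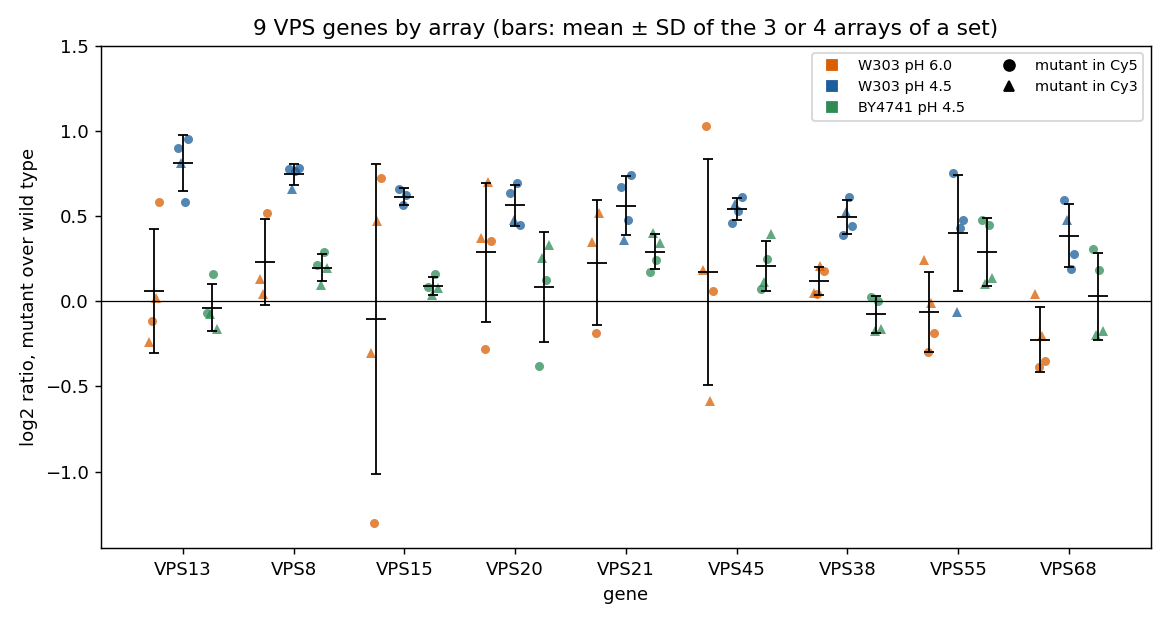
Log2 ratio of mutant over wild type (vertical axis) for the 9 VPS genes with the largest or most frequent calls (horizontal axis), with 1 point per array, circles for the mutant in Cy5 and triangles for the mutant in Cy3, and bars at the mean ± SD of a set. In W303 at pH 4.5 the arrays of VPS8 lie between 0.66 and 0.78, whereas VPS15 at pH 6.0 spreads from -1.30 to 0.72 and VPS55 and VPS68 separate by dye in BY4741.

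A few VPS names belong to nuclear proteins. VPS72 and VPS71 encode subunits of SWR1, which places a histone variant in chromatin, and VPS75 encodes a histone chaperone. The SWR1 genes moved in opposite directions in W303 at pH 4.5, where VPS72 rose by 0.49 ± 0.059 (SE, n = 4, adjusted p = 1.0e-04) and VPS71 fell by 0.47 ± 0.089 (SE, n = 4, adjusted p = 0.0014). VPS72 was above 0 on all 8 arrays of W303, with a mean of 0.49 ± 0.11 at pH 6.0 too (SE, n = 4, adjusted p = 0.078), and on 3 of 4 in BY4741 (mean 0.23, adjusted p = 0.18). At pH 6.0 VPS72 was called with array weights or with the spread pooled over all arrays, and VPS4 with the pooled spread. Under those fits 5.56% and 11.2% of all genes were called higher there. VPS71 had -0.37 and -0.47 on 2 arrays at pH 6.0. VPS75 had a mean of -0.19 (adjusted p = 0.043) in W303 at pH 4.5, and that call was lost whichever array was left out, with a mean of -0.11 without replicate 2.

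VPS52, VPS72 and VPS60 lie side by side on 1 chromosome in the RefSeq annotation. Their means in W303 at pH 4.5 were -0.16, 0.49 and 0.28, with VPS72 and VPS60 called and VPS52 not. At pH 6.0 they were 0.52, 0.49 and 0.01, and in BY4741 0.27, 0.23 and -0.08, none of them called.

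Among the remaining genes, VPS64, VPS74, VPS73 and VPS62 rose in W303 at pH 4.5, by 0.25, 0.24, 0.37 and 0.21. VPS74 encodes a Golgi protein that retains glycosyltransferases, and VPS64 a component of the Far complex, which acts in recovery from pheromone arrest. The VPS62 call was lost without replicate 4 (adjusted p = 0.059). VPS70 fell in BY4741 by 0.36 ± 0.088 (SE, n = 4, adjusted p = 0.024), with means of -0.41 at pH 6.0 (adjusted p = 0.345) and -0.09 in W303 at pH 4.5 (adjusted p = 0.22). VPS501 fell in BY4741 by 0.28 ± 0.080 (SE, n = 4, adjusted p = 0.038). Both BY4741 calls were lost without replicate 1, 2 or 4, with adjusted p between 0.061 and 0.13.

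VPS63 overlaps the reading frame of YPT6, a Golgi Rab GTPase gene, and VPS63 has no product named here. Its ratio fell by 0.31 in W303 at pH 4.5 (adjusted p = 0.0017) and YPT6 rose by 0.23 (adjusted p = 0.018). Other overlapping partners were DCR2 for VPS38, which fell by 0.27 where VPS38 rose, and CWC25 for VPS75, which had -0.21 beside -0.19. The labels do not say whether these spots tell the DNA strands apart.

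The difference between strains and between media was tested directly, for 39 VPS genes. Both contrasts use the arrays of W303 at pH 4.5, so a high value there enters both, with opposite sign. Between pH 6.0 and pH 4.5 in W303, 9 of 39 VPS genes had a lower ratio at pH 6.0 and 0 a higher one, 23.1% lower, where 13.2% of all genes tested were lower and 10.7% higher. At an unadjusted p below 0.05 the counts were 12 lower and 1 higher, the 1 being VPS52, against 20.9% and 17.0% of all genes. Differences were above 0 for 8 of the 39, which is 20.5%, against 47.5% of all genes. Between W303 and BY4741 at pH 4.5, 6 of 39 had a higher ratio in W303 and 0 a lower one, 15.4% higher, against 10.9% of all genes higher and 9.55% lower. At an unadjusted p below 0.05 they were 12 higher and 0 lower, against 17.8% and 16.4% of all genes, and 31 of the 39 differences, 79.5%, were above 0, against 52.3% of all genes. The count of higher differences moved with the fit, and the share of all genes moved too. It was 2 (5.13%, all genes 4.4%) with arrays scaled to equal spread, 16 (41.0%, all genes 23.8%) with array weights, and 12 of 40 (30.0%, all genes 20.2%) with the 8 arrays compared alone. The 9 lower differences between media became 3 (7.69%, all genes 6.92%) with arrays scaled and 5 (12.8%, all genes 9.86%) with the 8 arrays alone.

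VPS13 differed most of the called genes in both contrasts. Its ratio was 0.06 at pH 6.0 against 0.81 at pH 4.5 in W303, a difference of -0.75 ± 0.16 (SE, n = 4 against 4, adjusted p = 0.0058). Against BY4741 it was 0.81 in W303 and -0.04 in BY4741, a difference of 0.85 ± 0.16 (SE, n = 4 against 4, adjusted p = 0.0050). VPS8 differed by -0.51 ± 0.12 (SE, adjusted p = 0.011) between pH 6.0 and pH 4.5, and by 0.55 ± 0.11 (SE, adjusted p = 0.0083) between W303 and BY4741. VPS38 differed by -0.37 ± 0.094 (SE, adjusted p = 0.013) and 0.57 ± 0.094 (SE, adjusted p = 0.0021) in the same contrasts. These 6 differences were called whichever of the 8 arrays compared was left out. With arrays scaled to equal spread, both VPS8 differences (-0.36 and 0.36, adjusted p = 0.091 and 0.084) and the pH difference of VPS38 (-0.29, adjusted p = 0.076) lost the call.

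VPS68 was lower at pH 6.0 than at pH 4.5 by 0.61 ± 0.15 (difference -0.61, SE, adjusted p = 0.010), and VPS5 by 0.42 ± 0.11 (difference -0.42, SE, adjusted p = 0.015), both also called whichever of the 8 arrays compared was left out. VPS51 (-0.41), VPS73 (-0.46), VPS1 (-0.27) and VPS33 (-0.35) were called too, but lost the call without 1 or more arrays: 1 of 8 left out in turn for VPS51 (replicate 1 of W303 at pH 4.5, adjusted p = 0.068), 7 for VPS73, 5 for VPS1 and 6 for VPS33. Of the strain differences, VPS73 (0.49), VPS60 (0.37) and VPS74 (0.25) lost the call in 6, 6 and 8 of 8 cases. VPS15 differed by -0.72 ± 0.36 and 0.52 ± 0.36 in the same contrasts (adjusted p = 0.17 and 0.33), in a fit whose spread includes the arrays at pH 6.0. With the 8 arrays at pH 4.5 alone, VPS15 (0.52, adjusted p = 0.0019), VPS45 (0.34, adjusted p = 0.016) and VPS20 (0.48, adjusted p = 0.025) were called higher in W303 than in BY4741.

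**Figure D4:**
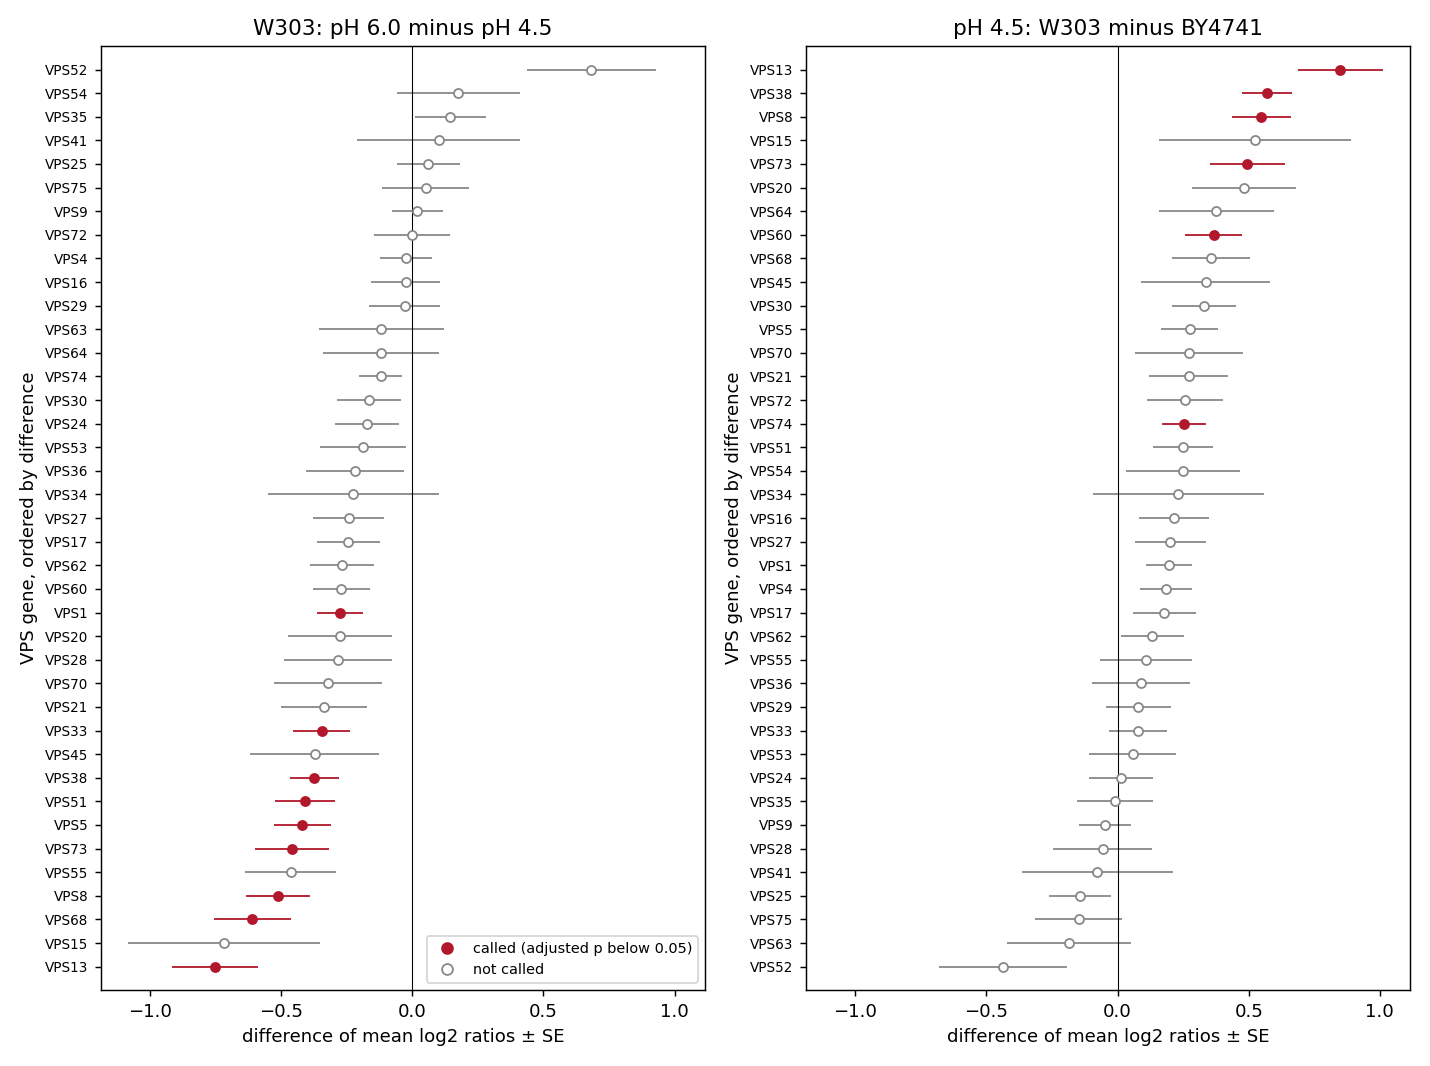
Difference of mean log2 ratios ± SE (horizontal axis) for the 39 VPS genes tested (vertical axis, ordered by difference), for pH 6.0 minus pH 4.5 in W303 (left) and for W303 minus BY4741 at pH 4.5 (right), with filled red points for genes called at an adjusted p below 0.05. The 9 called genes on the left all lie below 0 and the 6 on the right all above 0, and both panels share the arrays of W303 at pH 4.5.

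At pH 4.5, 40 VPS genes were tested in both strains. Of these, 16 had means above 0 in both, 8 below 0 in both, 14 above 0 in W303 and below 0 in BY4741, and 2 the reverse. The sign was thus shared by 60.0% of VPS genes, against 71.8% of all genes tested in both strains.

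Dye orientation was 3 to 1 in W303 at pH 4.5 and balanced in the other sets. Of 40 VPS genes measured in both orientations there, 34 had the same sign in each, with medians of 0.14 with the mutant in Cy5 and 0.20 with the mutant in Cy3. The same sign was seen for 25 of 42 at pH 6.0 and 27 of 41 in BY4741. The share of all genes with the same sign is not given here, so these counts are not a result about VPS genes. With a dye term in the fit, the VPS genes called were 0 at pH 6.0, 21 higher and 4 lower in W303 at pH 4.5, and 6 higher and 3 lower in BY4741. Under that fit the VPS shares in BY4741 were 14.6% and 7.32%, against 21.4% and 22.5% of all genes, and in W303 at pH 4.5 they were 51.2% and 9.76%, against 34.7% and 31.4%.

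Related genes of sorting to the vacuole were counted from 5 lists that hold no gene with a VPS standard name. Their calls follow in the order W303 at pH 6.0, W303 at pH 4.5 and BY4741, and share the percentages of all genes given above. Partner subunits under other names, such as ESCRT, HOPS and retromer components, rose in 0 of 18, 13 of 22 and 4 of 21 cases and fell in 0, 2 and 2. PEP12, for the endosomal SNARE that works with Vps45, was called higher in W303 at pH 4.5, at 1.09 ± 0.060 (SE, n = 4, adjusted p = 1.1e-06), and in BY4741, at 0.49 ± 0.075 (SE, n = 4, adjusted p = 0.0053). ATG14, for the subunit that directs the Vps34 complex to autophagy, rose by 0.82, and DID4, for the ESCRT-III subunit also known as Vps2, by 0.59, both in W303 at pH 4.5. In BY4741 PEP5 fell by 0.40 (adjusted p = 0.039) and IST1 rose by 0.32 (adjusted p = 0.019). PEP12 and DID4 differed by -0.93 and -0.65 between pH 6.0 and pH 4.5 in W303, and by 0.60 and 0.59 between W303 and BY4741, and all 4 differences were called (adjusted p of at most 0.0024).

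Late endosome and vacuole fusion genes rose in 0 of 10, 9 of 12 and 1 of 12 cases and fell in 0, 2 and 1. NYV1, for a vacuolar SNARE, rose by 0.58 in W303 at pH 4.5, whereas VAM3, for the vacuolar SNARE that pairs with it, fell by 0.41 there and by 0.47 in BY4741. Clathrin and its adaptors rose in 0 of 12, 5 of 12 and 1 of 12 cases and fell in 0, 3 and 3. GGA1, for an adaptor between Golgi and endosome, rose by 0.85 in W303 at pH 4.5, and APL6, of the adaptor complex for the direct route to the vacuole, fell by 0.36 there and by 0.43 in BY4741.

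Vacuolar hydrolases reach the vacuole by several routes, and those encoded by AMS1 and APE1 come from the cytosol by the autophagy-related Cvt pathway, not through the endosome. The list had medians of 0.11, 0.47 and 0.35 in the same order. They rose in 1 of 9, 7 of 10 and 5 of 8 cases and fell in 1, 2 and 1. AMS1, for the mannosidase, rose 4.08-fold in W303 at pH 4.5 and 3.17-fold in BY4741. PRB1, for a vacuolar protease, rose by 0.67 at pH 6.0 (adjusted p = 0.044) and by 1.82 in W303 at pH 4.5. Its ratio was higher in W303 than in BY4741 by 0.98 (adjusted p = 0.0022), so its mean was above 0 in BY4741 too. APE3, for an aminopeptidase, fell by 0.85 at pH 6.0 (adjusted p = 0.035) and by 0.90 in BY4741. Genes for the ubiquitin ligase Rsp5, its arrestin adaptors and a deubiquitinase, which tag permeases for this route or remove the tag, rose in 0 of 16, 7 of 18 and 0 of 17 cases and fell in 0, 2 and 4. SSH4, for an Rsp5 adaptor at the endosome and vacuole, rose by 0.97 in W303 at pH 4.5, and LDB19, for an arrestin at the plasma membrane, fell by 0.28 in BY4741. From the same list, CSR2 rose by 0.58 and TRE1 fell by 0.49 in W303 at pH 4.5. In BY4741 TRE1 fell by 0.39 and BUL2 by 0.37.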

How the data were processed

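The deposited table covers 5994 open reading frames on 12 two-colour arrays, and its values are read here as log2 ratios of the dyes as the authors deposited them. How they were normalised and filtered, their log base and the numerator dye are not stated in the labels. Values ran from -7.15 to 5.55, and base 2 was assumed; with natural logarithms every log2 value and fold would be too small in size. As deposited, 10 of 11 array pairs of opposite orientation within a set correlated negatively, and the sign was turned where the labels put the mutant in Cy3. RefSeq locus tags (R64) gave names to 5457 reading frames; no coordinates were used beyond order and overlap.

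Each set was fitted over all genes with limma 3.58.1 (R 4.3.3): 1 mean per gene, at least 3 values, empirical Bayes, two-sided, Benjamini-Hochberg over all genes, called below 0.05. The design text names one-class SAM, which was not run. Differences are contrasts in 1 fit of 12 arrays. The script was tested on simulated data. Members and lists were chosen with earlier results of these data known. Values on every array are given for genes called in 2 sets, or called with a mean or difference of at least 0.5; from other lists, up to 3 called genes of largest size were eligible in each comparison. The main fits do not pair arrays across sets by replicate number, since the labels give numbers only. Deviations from the set means of same-numbered arrays correlated at -0.41 to 0.24.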

Additional observations from a re-analysis of the deposited data

Results flagged for a closer look

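On single arrays, 4 of 109 sets of 4 values held 1 array far from the other 3, where chance gives about 1 in 20. VPS41 had -1.06 on replicate 4 of W303 at pH 4.5, against 0.32 to 0.51 on the others. VPS4 had 0.19 on replicate 1 of that set, against 0.42 to 0.44, and VPS8 had 0.66 on replicate 2, against 0.76 to 0.78. VPS5 had -0.44 on replicate 2 of W303 at pH 6.0, against -0.15 to -0.10.

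The mutant effect differed between pH 6.0 and pH 4.5 in W303, by the test of the difference, for VPS13 (-0.75), VPS68 (-0.61), VPS8 (-0.51), VPS73 (-0.46), VPS5 (-0.42), VPS51 (-0.41), VPS38 (-0.37), VPS33 (-0.35) and VPS1 (-0.27). It differed between W303 and BY4741 at pH 4.5 for VPS13 (0.85), VPS38 (0.57), VPS8 (0.55), VPS73 (0.49), VPS60 (0.37) and VPS74 (0.25). The contrasts share the arrays of W303 at pH 4.5. VPS73, VPS33, VPS1 and VPS51 lost the pH call when some single array was left out, and VPS73, VPS60 and VPS74 the strain call. With arrays scaled to equal spread, 3 pH and 2 strain differences were called, 7.69% and 5.13% of VPS genes (all genes 6.92% and 4.4%).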

How the results depend on the processing

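No signal over background was used here, and 4 arrays per set limit the precision. Members called higher in W303 at pH 4.5 numbered 17 to 24 under every alternative run. With pooled spread they were 42.5% (all genes 27.9%), and with array weights 58.5% (all genes 38.9%). The median over all VPS genes tested there was 0.23 without replicate 1 (0.17 to 0.23 over single arrays left out). In BY4741 members called higher were 6 (14.6%, all genes 21.4%) with a dye term and 4 (9.76%, all genes 17.1%) with array weights. With the spread pooled over all arrays 0 were called higher there (all genes 14.1%). Without 1 array they numbered 0 to 3, with 1 without replicate 2 (all genes 13.4%) and 0 without 3 or 4 (all genes 7.58% and 10.2%). Members called lower in BY4741 were 0 with pooled spread (all genes 12.2%) and 0 to 2 without 1 array. The count was 0 without replicate 1, 2 or 4, where 10.2%, 11.3% and 7.69% of all genes were lower. Members called lower in W303 at pH 4.5 were 1 with pooled spread (2.5%, all genes 25.9%) and 2 to 4 without 1 array. They were 2 without replicate 2 or 4 (4.76% and 4.88%, all genes 31.5% and 28.5%). At pH 6.0, 1 (2.5%, all genes 5.56%) was called higher with array weights and 2 (5.0%, all genes 11.2%) with pooled spread. For W303 minus BY4741, higher differences numbered 2 with arrays scaled to equal spread, 16 with array weights, 12 with only the 8 arrays compared, and 3 to 4 without 1 array. Without 1 array these were 7.69% to 10.3% of VPS genes, against 5.46% to 8.53% of all genes. For pH 6.0 minus pH 4.5, lower differences numbered 3 with arrays scaled, 5 with the 8 arrays alone, and 5 to 10 without 1 array. They were 5 without replicate 1 of W303 at pH 4.5. Without 1 array, 12.5% to 25.0% of VPS genes were lower, against 8.74% to 15.9% of all genes. Higher ones numbered 0 to 1, with 1 without replicate 3 of either W303 set (all genes 8.05% at pH 4.5 and 14.7% at pH 6.0). With the replicate number as a block, 1 difference from BY4741 was lower and 1 between media higher, both VPS52. Each is 2.56% of VPS genes, against 6.83% and 9.3% of all genes. The cause of these changes was not tested. For the 9 genes given by array, called means kept the call in 110 of 120 repeats and lost it in 10, and called differences kept it in 107 of 110 and lost it in 3. These 9 were chosen by their calls and size, which favours kept calls. Over all called VPS genes, 7 of 25 calls in W303 at pH 4.5 and 4 of 4 in BY4741 were lost without some array. So were 3 of 6 strain differences and 4 of 9 pH differences. The share over all genes is not given here. Among the 9 genes, uncalled means that changed sign were, in BY4741, VPS13 without 1 array (-0.10 to 0.0057) and VPS68 (-0.063 to 0.11). At pH 6.0 they were VPS15 (-0.38 to 0.30), VPS45 (-0.11 to 0.42), VPS55 (-0.16 to 0.015) and VPS13 (-0.11 to 0.16) without 1 array, and VPS55 (0.023) and VPS13 (-0.0041) with array weights. For W303 minus BY4741 it was VPS55, with -0.041 with arrays scaled and -0.0094 to 0.26 without 1 array. With all arrays median-centred, 20 (48.8%, all genes 34.5%) rose and 4 (9.76%, all genes 34.3%) fell in W303 at pH 4.5.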
